A study of Mus musculus with 11 samples.

Results

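The 33 genes described here encode the folding machinery of the endoplasmic reticulum (ER) and the pathway that senses misfolded protein there, the unfolded protein response. They were taken by symbol from a list chosen with earlier results of these data known, so their shares are not independent evidence of direction. All 33 were among the 24718 genes of the deposited table and among the 17838 genes tested. Levels were measured by bulk RNA-seq in bone marrow cells labelled mesenchymal stem and progenitor cells, sorted for tdTomato from female Lepr-Cre;LSL-tdTomato+/- mice, in which Cre recombinase expressed from the leptin receptor locus switches on the red reporter. There were 3 groups of biological replicates: DOX4X (4 libraries, mice 8 to 10 weeks old, 4 intravenous injections of doxorubicin at 5 mg/kg with 1 week between injections), DOX1X (3 libraries, young adult mice, 1 intravenous injection at 10 mg/kg), and the controls PBS (4 libraries, age not given, 4 intravenous injections of phosphate-buffered saline). All cells were collected 8 weeks after treatment, and all 3 groups carry the same reporter genotype. Doxorubicin is an anthracycline that traps topoisomerase II on DNA. PBS and DOX4X mice had 4 injections and DOX1X mice 1, so the number of injections also differs between DOX1X and the other groups. A reporter driven by Lepr-Cre marks any cell whose lineage has expressed the leptin receptor, and is not a single cell type.

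Secreted and membrane proteins fold in the ER, where HSP70 and HSP90 family chaperones hold unfolded chains, lectin chaperones hold glycosylated ones, and disulfide isomerases and oxidases form cysteine bridges. Procollagen needs helpers of its own: prolyl isomerases, a prolyl 3-hydroxylase complex and the collagen chaperone HSP47. When unfolded protein accumulates, the sensors ATF6, IRE1 (gene Ern1) and PERK (gene Eif2ak3) raise chaperones and degradation factors, and PERK also raises ATF4 and its target CHOP (gene Ddit3). Stromal cells of marrow and bone secrete much collagen and other matrix, and depend on this machinery.

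Promoters of classical ER chaperone genes carry the ER stress response element (ERSE), the letters CCAAT and CCACG with 9 bases of any kind between them, which is bound by ATF6 together with the general factor NF-Y, and it was sought because it marks members by sequence and not by expression. Windows from 250 bases before to 50 bases after the start of each gene were taken from RefSeq (GRCm38.p6, another build than the GRCm39 used for the counts) and searched on both strands. A window was found for 29 of the 33 members, 31 windows in all. The exact ERSE was present in 8 of these 29 genes (27.6%), against 37 of all 27025 genes with a window (0.137%), the members included. Because the element is described from classical ER chaperone genes, which are among the members, this contrast is a description and not a test. The ERSE letters, with 8 flanking bases in lower case, are shown 5′ to 3′ in the orientation of the element, because they are the feature that sets these members apart from most promoters. Capitals mark the element.
Hspa5: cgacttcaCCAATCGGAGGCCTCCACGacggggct
Hsp90b1 distal: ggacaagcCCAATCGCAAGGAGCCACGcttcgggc
Hsp90b1 proximal: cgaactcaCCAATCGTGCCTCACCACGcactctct
Calr: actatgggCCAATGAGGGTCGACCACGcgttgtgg
Canx: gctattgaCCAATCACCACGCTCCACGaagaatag
Pdia6: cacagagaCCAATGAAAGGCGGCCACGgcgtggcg
Dnajc3: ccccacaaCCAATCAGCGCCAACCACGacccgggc
Creld2: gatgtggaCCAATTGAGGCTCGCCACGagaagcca
Syvn1: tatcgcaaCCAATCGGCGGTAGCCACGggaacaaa

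The Hspa5 element lies at chr2:34772025-34772043 on the plus strand, with its first base 65 bases before the start. Hsp90b1 held 2 elements, at chr10:86705638-86705656 and chr10:86705533-86705551, and was the member with more than 1 exact match. Copies of the element with mismatches were not sought, in Hspa5 or in any other member. The related ERSE-II (ATTGG and CCACG with 1 base between them) was present in Herpud1 and Dnajb11, 2 of 29 genes, against 12 of 27025 genes (0.0444%). Herpud1 also held TGATGCAA, a form of the CARE element bound by ATF4 (1 of 29 members, 3.45%, against 1.03% of all genes), and no member held the UPRE letters TGACGTGG (0.714% of all genes). The 2 promoters below, the 250 bases before the start, set the main chaperone Hspa5 beside Qsox1, the member on which the comparisons turn. The exact ERSE is in capitals in Hspa5 (chr2:34771840-34772089, plus strand) and its letters are not in the Qsox1 window (chr1:155812900-155813149, minus strand).
Hspa5: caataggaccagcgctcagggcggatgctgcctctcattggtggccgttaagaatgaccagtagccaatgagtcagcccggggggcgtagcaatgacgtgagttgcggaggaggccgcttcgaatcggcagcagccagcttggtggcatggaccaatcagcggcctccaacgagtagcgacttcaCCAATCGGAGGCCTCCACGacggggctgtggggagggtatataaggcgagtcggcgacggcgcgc
Qsox1: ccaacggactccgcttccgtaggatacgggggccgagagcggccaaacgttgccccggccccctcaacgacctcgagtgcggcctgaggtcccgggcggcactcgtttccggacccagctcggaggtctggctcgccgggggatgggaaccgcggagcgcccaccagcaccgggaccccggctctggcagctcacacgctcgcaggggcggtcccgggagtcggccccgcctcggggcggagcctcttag

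Total counts were 31129352 to 36888310 in DOX4X, 33496356 to 42002065 in DOX1X and 29540422 to 42784036 in PBS. None of 16 stromal markers was at 0 in any library, which shows stromal RNA in each and does not measure purity. Cxcl12 stood between 46059 and 59804 CPM (counts scaled to library size with TMM factors) over the 11 libraries. In DOX4X against PBS, 11 of the 16 had a negative log2 fold change (68.8%, against 47.8% of all genes). Their median was -0.14, the same to 2 digits as that of the 33 members. The library called PBS 4 here is titled as a doxorubicin sample, yet its treatment and library name mark it as a control, so values without it are given for members on which it stood apart or turned the sign. By the column names, PBS 1 to 4 and DOX1X 1 and 2 were run on flow cell 1, and DOX4X 1 to 4 and DOX1X 3 on flow cell 2. DOX4X and PBS therefore share no flow cell, and the 2 can be separated only through the DOX1X libraries. Each value below from a fit with a flow cell term, changes of sign included, thus rests on DOX1X 3 set against DOX1X 1 and 2.

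Markers of other cells varied between libraries of the same group as well as between groups. The blood cell sums overlapped between all groups. The endothelial sums of DOX4X overlapped those of PBS but not those of DOX1X. The summed level of 37 blood cell markers was 975 to 2581 CPM in DOX4X, 791 to 2131 CPM in DOX1X and 546 to 1466 CPM in PBS, and all 37 had a positive fold change in DOX4X against PBS. The summed level of 18 endothelial markers was 726 to 1328 CPM in DOX4X, 276 to 513 CPM in DOX1X and 203 to 860 CPM in PBS. Plasma cells carry high levels of ER chaperones. Of 15 markers listed for them, Mzb1 stood between 0.0334 and 0.455 CPM and Tnfrsf17 between 0 and 0.269 CPM over the 11 libraries. Jchain was not near 0 throughout, with 0 to 117 CPM in DOX4X, 106 to 134 CPM in DOX1X and 0.133 to 76.3 CPM in PBS. The 15 plasma cell markers summed to 1106 to 1420 CPM in DOX4X, 1237 to 1356 CPM in DOX1X and 1191 to 1431 CPM in PBS. This sum is mostly that of Txndc5, Sdc1 and Xbp1, which had 282 to 528 CPM in every library. Gene by gene, 10 of the 14 tested were higher and 4 lower in DOX4X against PBS (28.6% lower, against 47.8% of all genes), with a median log2 fold change of 0.32. In DOX1X against PBS, 8 were higher and 6 lower, with a median of 0.39. Pou2af1 had 11.4 to 42.3 CPM in DOX4X, 12.5 to 19.5 CPM in DOX1X and 6.37 to 18.2 CPM in PBS. The 22 dissociation stress genes summed to 11681 to 14449 CPM in DOX4X, 15221 to 16362 CPM in DOX1X and 13276 to 17142 CPM in PBS. The part of blood, endothelial and dissociation signals in the members' values was not tested, beyond a fit with the blood cell markers as a covariate. In bulk RNA, fewer cells of a type and less RNA per cell cannot be told apart.

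Per kilobase of merged exons (GENCODE M21 lengths), the collagen chaperone Serpinh1 and the chaperone Hspa5 were the most abundant members in PBS cells. Serpinh1 stood at 656 ± 40.2 CPM per kb and Hspa5 at 541 ± 55.1 CPM per kb (SD, n = 4). Calr, Pdia3, P4hb, Pdia6 and Hsp90b1 followed, between 349 and 491 CPM per kb on average. The sensors were scarce by this measure, at 13.3 ± 1.92 for Atf6, 7.42 ± 0.958 for Eif2ak3 and 3.15 ± 0.354 CPM per kb for Ern1. Trib3, a pseudokinase induced by ATF4 and CHOP, was the least abundant at 0.604 ± 0.0842 CPM per kb and rested on 28 to 78 counts per library.

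After 4 doses of doxorubicin, 1 of the 33 members, Qsox1, fell against PBS. Qsox1 is 1 of the 5 disulfide enzymes, all of which had negative log2 fold changes (median -0.20, Qsox1 included), and the other 4 did not pass the test. The 6 procollagen folding genes also had negative fold changes (median -0.22), and none passed. The 9 chaperones of the HSP70 and HSP90 system and their partners had a median of -0.07, and the 7 sensors and transcription factors 0.11, a value whose sign turned with the blood cell marker covariate (-0.19) and which was 0.03 without DOX4X 2 and 0.05 without PBS 1. Over all 17838 genes the median was 0.01, and no test was made of a role as a whole. All 11 libraries entered edgeR's quasi-likelihood test (both directions), and p-values were adjusted by Benjamini-Hochberg over the 17838 genes. At a threshold of 0.05 it called 0.146% of all genes, each of them lower. Over the members, 26 of 33 fold changes were below 0 (78.8%, against 47.8% of all genes). At an unadjusted p under 0.05, 12 were lower (36.4%, against 7.85% of all genes) and 1 higher (6.00% of all genes). With a library left out, the count lower ranged from 6 without DOX4X 1 (18.2%, against 6.00% of all genes in that fit) to 14 without DOX4X 4 (42.4%, against 7.84%). With a filter of 5 CPM in 3 libraries it was 9 of 32 (28.1%, against 8.45%). The groups did not overlap for 6 members that were lower (18.2%, against 4.68% of all genes) and 1 that was higher (3.17% of all genes).

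**Figure D1:**
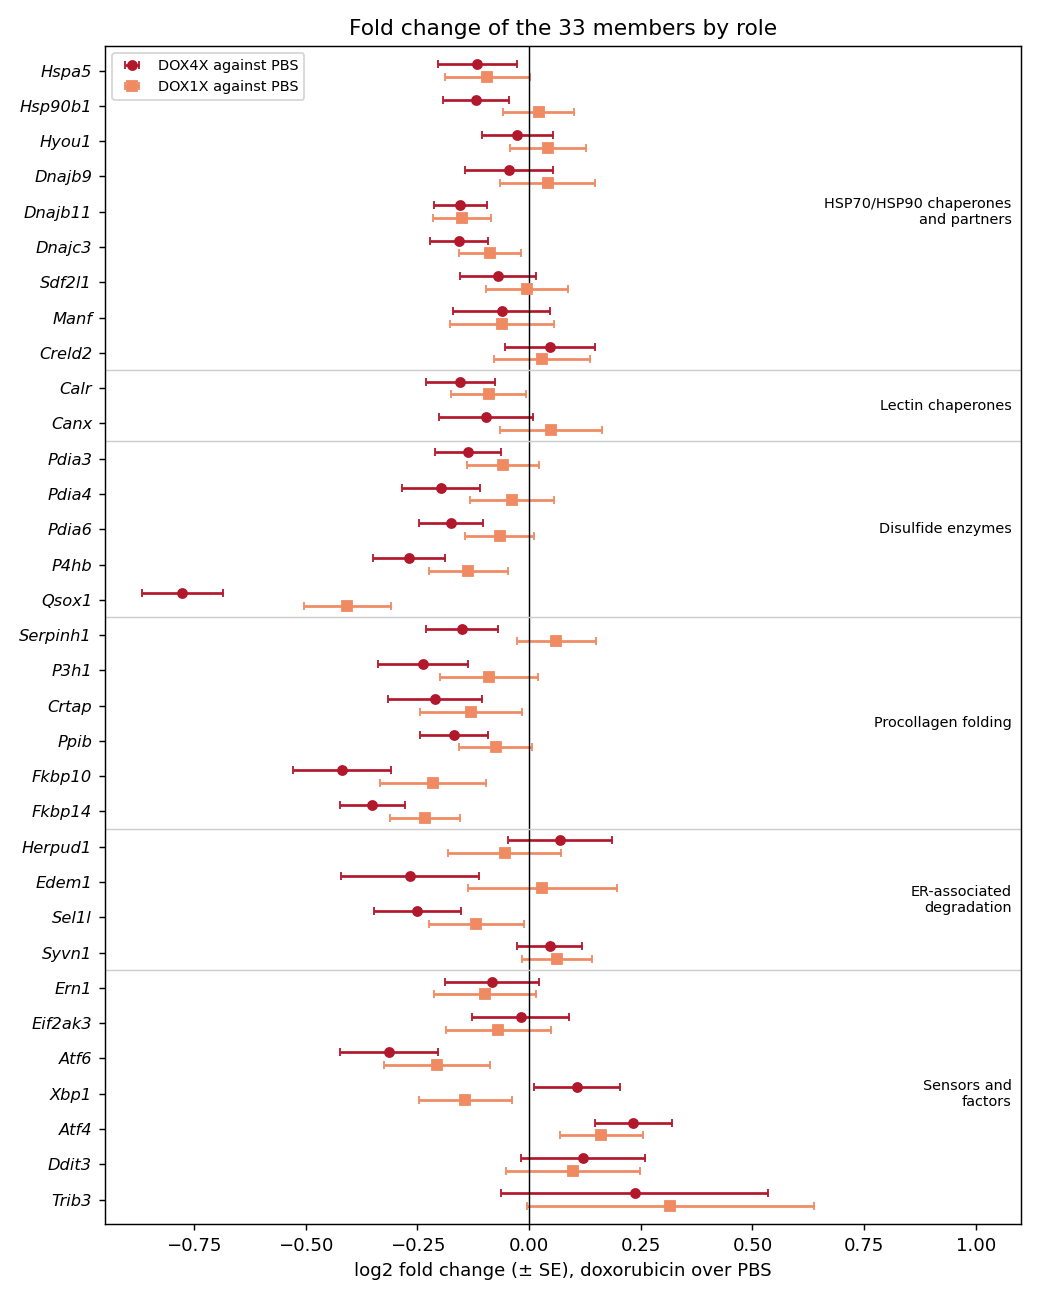
Log2 fold changes (± SE) of the 33 members in DOX4X against PBS (circles) and DOX1X against PBS (squares), by role from top to bottom, with the same 4 PBS libraries in both. Qsox1 stands farthest left in both comparisons, at -0.78 in DOX4X and -0.41 in DOX1X, and the procollagen folding genes lie left of 0 in DOX4X.

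Qsox1 encodes quiescin sulfhydryl oxidase, which makes disulfide bonds in proteins late in the secretory pathway and is itself secreted. It had 91.3, 86.3, 97.6 and 101 CPM in the DOX4X libraries, 124, 125 and 116 CPM in the DOX1X libraries, and 156, 154, 190 and 144 CPM in the PBS libraries. Every DOX4X library lay below every DOX1X library, and every DOX1X library below every PBS library. Qsox1 averaged 93.9 ± 6.36 CPM in DOX4X (SD, n = 4), 121 ± 4.83 CPM in DOX1X (n = 3) and 161 ± 20.04 CPM in PBS (n = 4). It fell by 0.78 on the log2 scale in DOX4X against PBS (SE 0.09, edgeR adjusted p = 0.019), which is 41.6% below PBS. DOX1X against PBS gave -0.41 (SE 0.10, edgeR adjusted p = 0.52), and DOX4X against DOX1X gave -0.37 (SE 0.10, edgeR adjusted p = 0.89), so neither of these differences passed the threshold.

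The size of the Qsox1 difference varied little and its call did not hold throughout. Over 21 alternatives the DOX4X to PBS log2 fold change lay between -0.83 and -0.68. The call was lost in the fit with a flow cell term (-0.68, SE 0.18, edgeR adjusted p = 0.31). That term was set only by DOX1X 3, the DOX1X library on flow cell 2, against DOX1X 1 and 2. The call was also lost with the blood cell marker covariate (adjusted p = 0.11), when DOX1X was left out of the fit (0.054), and without DOX4X 1, DOX4X 2, DOX4X 3 or DOX1X 1 (0.11, 0.11, 0.059 and 0.056). Without PBS 4 Qsox1 had -0.83 (adjusted p = 0.0061). Within flow cell 1, DOX1X 1 and 2 against PBS gave -0.38 (SE 0.12), and within flow cell 2, DOX4X against DOX1X 3 alone gave -0.30. These 2 values are the steps that make up the value with the flow cell term, and are not further evidence.

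**Figure D2:**
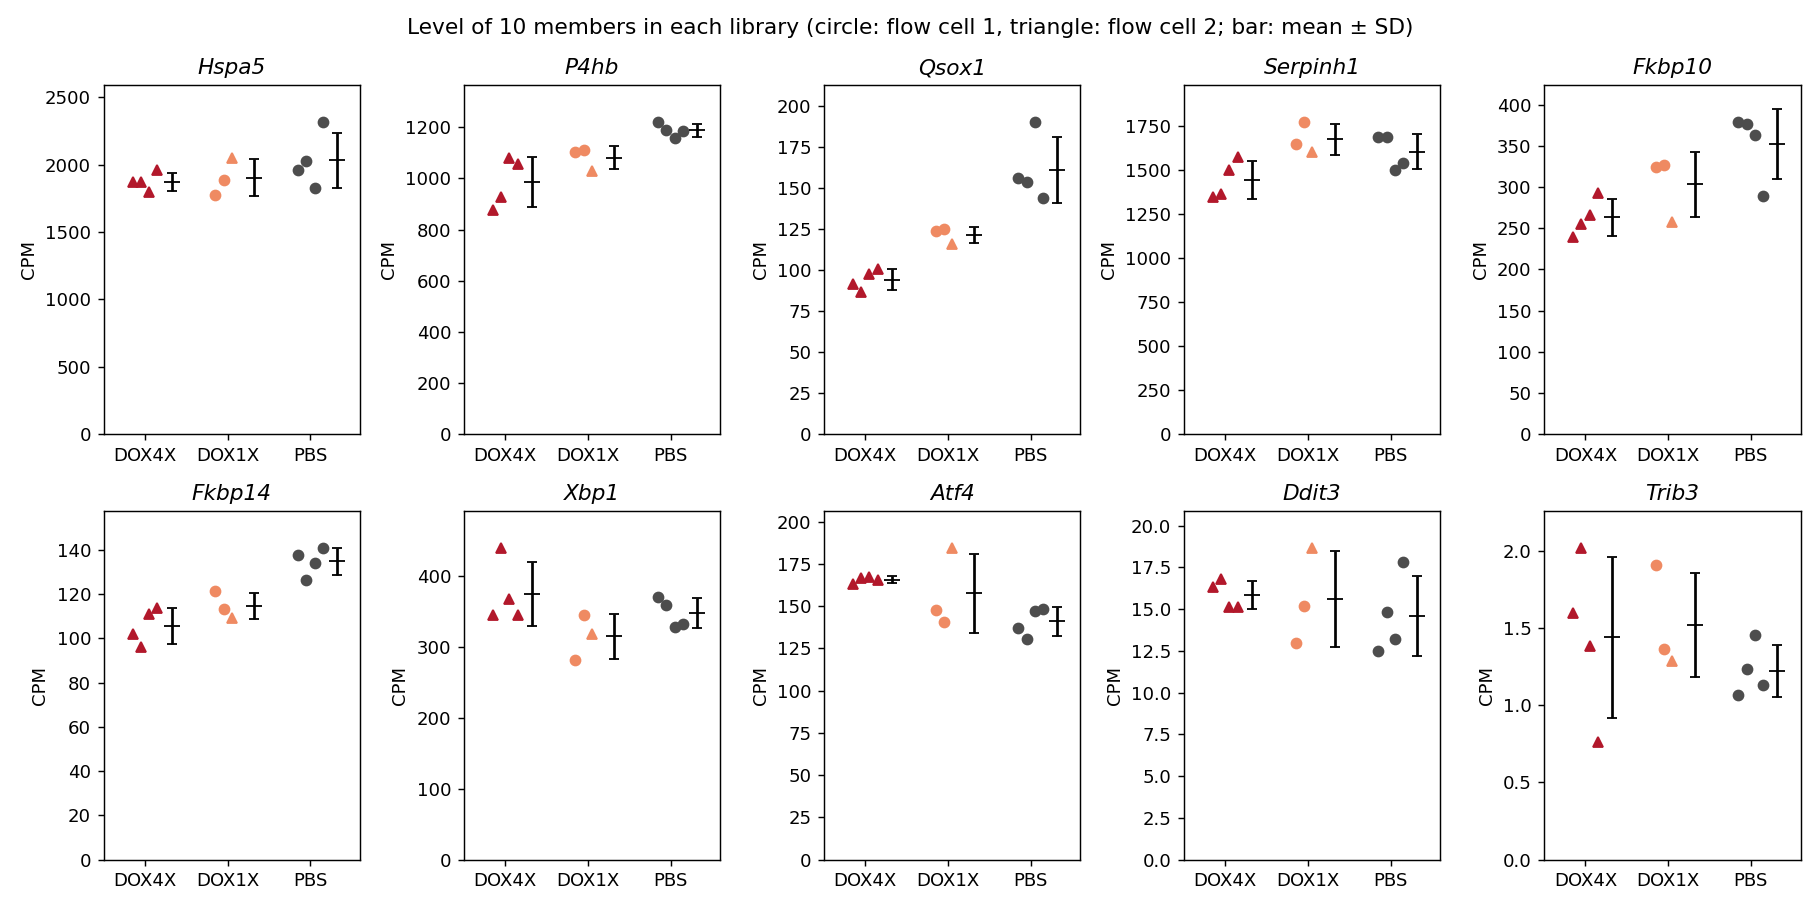
CPM of 10 members in each library, with DOX4X left, DOX1X in the middle and PBS right, circles for flow cell 1, triangles for flow cell 2 and the mean ± SD beside the points. The 4 DOX4X points of Qsox1, 86.3 to 101 CPM, lie below the 4 PBS points, 144 to 190 CPM, while Hspa5 overlaps between the groups.

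Among the other disulfide enzymes, P4hb encodes protein disulfide isomerase, which is also the beta subunit of the collagen prolyl 4-hydroxylases. It had 878, 927, 1079 and 1058 CPM in DOX4X, 1102, 1111 and 1031 CPM in DOX1X, and 1220, 1190, 1158 and 1185 CPM in PBS. The DOX4X libraries and the DOX1X libraries each lay below all 4 PBS libraries, while DOX4X and DOX1X overlapped. Its log2 fold change in DOX4X against PBS was -0.27 (SE 0.08, edgeR adjusted p = 0.19), and -0.17 in the fit with a flow cell term. The isomerases Pdia4 (-0.20, SE 0.09), Pdia6 (-0.18, SE 0.07) and Pdia3, the partner of the lectin chaperones (-0.14, SE 0.07), had edgeR adjusted p of 0.35, 0.31 and 0.44. In DOX1X against PBS the log2 fold changes of these 4 isomerases lay between -0.14 and -0.04.

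The procollagen folding genes were led by the prolyl isomerases Fkbp14 and Fkbp10. Fkbp14 had 102, 96.2, 111 and 113 CPM in DOX4X, 121, 113 and 109 CPM in DOX1X, and 138, 126, 134 and 141 CPM in PBS. All doxorubicin libraries of both groups lay below all PBS libraries. Its log2 fold change was -0.35 in DOX4X (SE 0.07, edgeR adjusted p = 0.10) and -0.23 in DOX1X (SE 0.08, edgeR adjusted p = 0.60), each against PBS.

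Fkbp10 encodes the isomerase FKBP65, whose loss causes brittle bone disease in humans. It had 240, 255, 267 and 293 CPM in DOX4X, 325, 328 and 258 CPM in DOX1X, and 379, 377, 364 and 289 CPM in PBS. DOX4X overlapped PBS only through PBS 4, the library whose labels disagree, and DOX1X 3 lay inside the DOX4X range. The log2 fold change in DOX4X against PBS was -0.42 (SE 0.11, edgeR adjusted p = 0.15), -0.50 without PBS 4 (adjusted p = 0.065) and -0.08 in the fit with a flow cell term.

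Serpinh1, the gene of the collagen chaperone HSP47, had 1344, 1364, 1497 and 1570 CPM in DOX4X, 1645, 1769 and 1600 CPM in DOX1X, and 1686, 1687, 1499 and 1538 CPM in PBS. The DOX4X libraries lay below all DOX1X libraries and overlapped the PBS libraries. Its log2 fold change was -0.15 in DOX4X against PBS (SE 0.08, edgeR adjusted p = 0.44), and -0.21 in DOX4X against DOX1X (SE 0.09, edgeR adjusted p = 1.00). P3h1, Crtap and Ppib form the complex that hydroxylates single prolines of procollagen, and their DOX4X to PBS log2 fold changes were -0.24 (SE 0.10), -0.21 (SE 0.10) and -0.17 (SE 0.08), with edgeR adjusted p of 0.33 to 0.40. With a flow cell term P3h1 turned sign (0.07), and the median of the 6 procollagen folding genes was -0.08 in place of -0.22.

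Hspa5 encodes BiP, the HSP70 of the ER and the usual readout of the unfolded protein response. It had 1872, 1868, 1795 and 1961 CPM in DOX4X, 1777, 1885 and 2048 CPM in DOX1X, and 1958, 2028, 1825 and 2315 CPM in PBS. The 3 groups overlapped, and the highest value was that of PBS 4. Its log2 fold change was -0.12 in DOX4X (SE 0.09, edgeR adjusted p = 0.61) and -0.09 in DOX1X (SE 0.10, edgeR adjusted p = 0.83), each against PBS. In DOX4X it was -0.03 with the blood cell marker covariate, -0.05 without PBS 4 and -0.28 in the fit with a flow cell term.

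The other HSP70 and HSP90 members had DOX4X to PBS log2 fold changes between -0.16 and 0.05. The J-domain partners Dnajc3 (-0.16, SE 0.06) and Dnajb11 (-0.15, SE 0.06) were lower at an unadjusted p under 0.05 and did not overlap PBS, with edgeR adjusted p of 0.32 and 0.29. Dnajb11 also did not overlap in DOX1X against PBS (-0.15, SE 0.06, edgeR adjusted p = 0.67). Hsp90b1 (GRP94, the HSP90 of the ER) had -0.12 (SE 0.07), Hyou1 (the exchange factor GRP170) -0.03 (SE 0.08), and Dnajb9 (a J protein that BiP uses to hold IRE1 inactive) -0.05 (SE 0.10). Sdf2l1, Manf and Creld2, which are small ER stress-induced factors, had -0.07 (SE 0.09), -0.06 (SE 0.11) and 0.05 (SE 0.10). Without PBS 4, the highest library for both, Dnajb9 and Manf turned sign (0.05 and 0.04), and the median of the 9 genes was -0.04, with 3 above and 6 below 0. Creld2 turned sign with a flow cell term (-0.27), Manf with the blood cell marker covariate (0.02) and Hyou1 without PBS 3 (0.04). The lectin chaperones Calr (calreticulin) and Canx (calnexin) had -0.15 (SE 0.08) and -0.10 (SE 0.11), with groups that overlapped. Canx turned sign with a flow cell term (0.19, SE 0.20) and had -0.29 with the blood cell marker covariate (SE 0.11). The median of the 2 genes, -0.13, was 0.04 with the flow cell term, -0.23 with the covariate and -0.08 without DOX4X 3.

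The degradation factors divided by sign. Sel1l, the scaffold of the ubiquitin ligase that clears misfolded ER protein, stood at -0.25 on the log2 scale in DOX4X against PBS (SE 0.10, edgeR adjusted p = 0.30), and Edem1, a mannosidase-like factor that hands glycoproteins to it, -0.27 (SE 0.15, edgeR adjusted p = 0.47). Edem1 had -0.14 without DOX4X 3, its lowest library, 0.20 with a flow cell term (SE 0.28) and -0.54 with the blood cell marker covariate (SE 0.17), and Sel1l had -0.01 with the flow cell term. Syvn1, the ligase HRD1 itself, had 0.05 (SE 0.07), and Herpud1, its ER stress-induced partner, 0.07 (SE 0.12). The median of these 4 genes, -0.10, was 0.09 with a flow cell term, -0.02 without DOX4X 3 and -0.16 with blood cell markers in the fit.

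Of the sensors and factors, Atf4 was the member with a higher level in DOX4X at an unadjusted p under 0.05. Atf4 encodes the transcription factor that PERK and other kinases of the integrated stress response raise, largely through translation. It had 163, 167, 167 and 165 CPM in DOX4X, 148, 141 and 184 CPM in DOX1X, and 137, 131, 147 and 149 CPM in PBS. The DOX4X libraries lay above all PBS libraries, and DOX1X 3 lay above every other library. The log2 fold change in DOX4X against PBS was 0.23 (SE 0.09, edgeR adjusted p = 0.27), and its sign turned in the fit with a flow cell term (-0.12, SE 0.13, edgeR adjusted p = 0.82).

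Ddit3, the gene of CHOP, a factor tied to death under lasting ER stress, had 16.3, 16.8, 15.2 and 15.1 CPM in DOX4X, 13.0, 15.2 and 18.7 CPM in DOX1X, and 12.5, 14.8, 13.2 and 17.8 CPM in PBS. The groups overlapped, with log2 fold changes of 0.12 in DOX4X (SE 0.14, edgeR adjusted p = 0.77) and 0.10 in DOX1X (SE 0.15, edgeR adjusted p = 0.90), each against PBS, and -0.29 in DOX4X in the fit with a flow cell term. Trib3 had 1.60, 2.02, 1.38 and 0.763 CPM in DOX4X, 1.91, 1.36 and 1.29 CPM in DOX1X, and 1.07, 1.23, 1.46 and 1.13 CPM in PBS. Both the lowest and the highest Trib3 values were in DOX4X libraries, and the DOX4X to PBS log2 fold change was 0.24 (SE 0.30, edgeR adjusted p = 0.79). Trib3 turned sign once blood cell markers entered the fit (-0.25).

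Xbp1 encodes the factor whose mRNA IRE1 splices; gene counts do not separate the spliced form. It had 345, 440, 368 and 345 CPM in DOX4X, 282, 345 and 318 CPM in DOX1X, and 371, 360, 328 and 333 CPM in PBS. The DOX4X libraries lay just above all DOX1X libraries and overlapped PBS. The log2 fold change was 0.11 in DOX4X against PBS (SE 0.10, edgeR adjusted p = 0.68), -0.14 in DOX1X against PBS (SE 0.10, edgeR adjusted p = 0.77) and 0.25 in DOX4X against DOX1X (SE 0.10, edgeR adjusted p = 1.00). The sensor Atf6 had -0.31 in DOX4X against PBS (SE 0.11, edgeR adjusted p = 0.25), and 0.01 in the fit with a flow cell term. Its DOX4X libraries lay only just below PBS, with 81.3 CPM in DOX4X 1 and 81.5 CPM in PBS 4. Ern1 (-0.08, SE 0.11) and Eif2ak3 (-0.02, SE 0.11) had fold changes smaller than their errors, and both turned sign with a flow cell term (0.11 and 0.28).

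After a single dose, no member passed the threshold against PBS with edgeR, which called 0.00561% of all genes. Fold changes were below 0 for 22 of 33 members (66.7%, against 48.8% of all genes). At an unadjusted p under 0.05, which 7.16% of all genes passed in either direction, 3 members were lower (9.09%, against 3.74% of all genes), Qsox1, Fkbp14 and Dnajb11, and 0 higher (3.42% of all genes). DESeq2 called 1 member, Qsox1 (adjusted p = 0.0498), and limma-voom called 0. The groups did not overlap for 5 members that were lower (15.2%, against 3.82% of all genes), which were those 3 with P4hb and Pdia6, and for 0 that were higher (3.18% of all genes). The members' median log2 fold change was -0.07 in DOX1X against PBS and -0.14 in DOX4X against PBS, and both comparisons use the same 4 PBS libraries.

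Between the schedules, DOX4X against DOX1X, no member passed with edgeR, which called 0.00561% of all genes, nor with DESeq2 or limma-voom. Fold changes were below 0 for 26 of 33 members (78.8%, against 50.3% of all genes). At an unadjusted p under 0.05, which 4.36% of all genes passed in either direction, Qsox1 and Serpinh1 were lower (6.06% of members, against 2.13% of all genes) and Xbp1 was higher (2.23% of all genes). The groups did not overlap for 3 members that were lower (9.09%, against 2.79% of all genes), Qsox1, Serpinh1 and Hyou1, and for Xbp1, which was higher (3.19% of all genes). The median log2 fold change was -0.08, and -0.03 in the fit with a flow cell term.

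DOX1X 3 was run with the DOX4X libraries on flow cell 2. For 21 of the 33 members DOX1X 3 lay below both DOX1X 1 and DOX1X 2, and for 7 it lay above both. These counts were not made over all genes, so whether they are particular to the members was not tested. DOX1X 3 also had a lower summed level of blood cell markers, 791 CPM against 2131 and 2013 CPM in DOX1X 1 and 2. Flow cell and cell mix cannot be told apart for this library, and neither was tested as a cause. In the fit with a flow cell term the members' median in DOX4X against PBS was -0.07 in place of -0.14, with 23 of 33 below 0 (69.7%, against 50.9% of all genes in that fit) and 1 (Qsox1, unadjusted p = 0.0034) lower at an unadjusted p under 0.05 (3.03%, against 3.72% of all genes). By role the medians with this term were -0.13 for the HSP70 and HSP90 system, -0.14 for disulfide enzymes, -0.08 for procollagen folding, 0.04 for lectin chaperones, 0.09 for degradation factors and 0.08 for sensors and factors. With the blood cell marker covariate the members' median was -0.17, with 27 of 33 below 0 (81.8%, against 48.7% of all genes in that fit) and 8 lower at an unadjusted p under 0.05 (24.2%, against 6.73% of all genes). By role the medians with the covariate were -0.03 for the HSP70 and HSP90 system, -0.23 for lectin chaperones, -0.15 for disulfide enzymes, -0.24 for procollagen folding, -0.16 for degradation factors and -0.19 for sensors and factors.

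**Figure D3:**
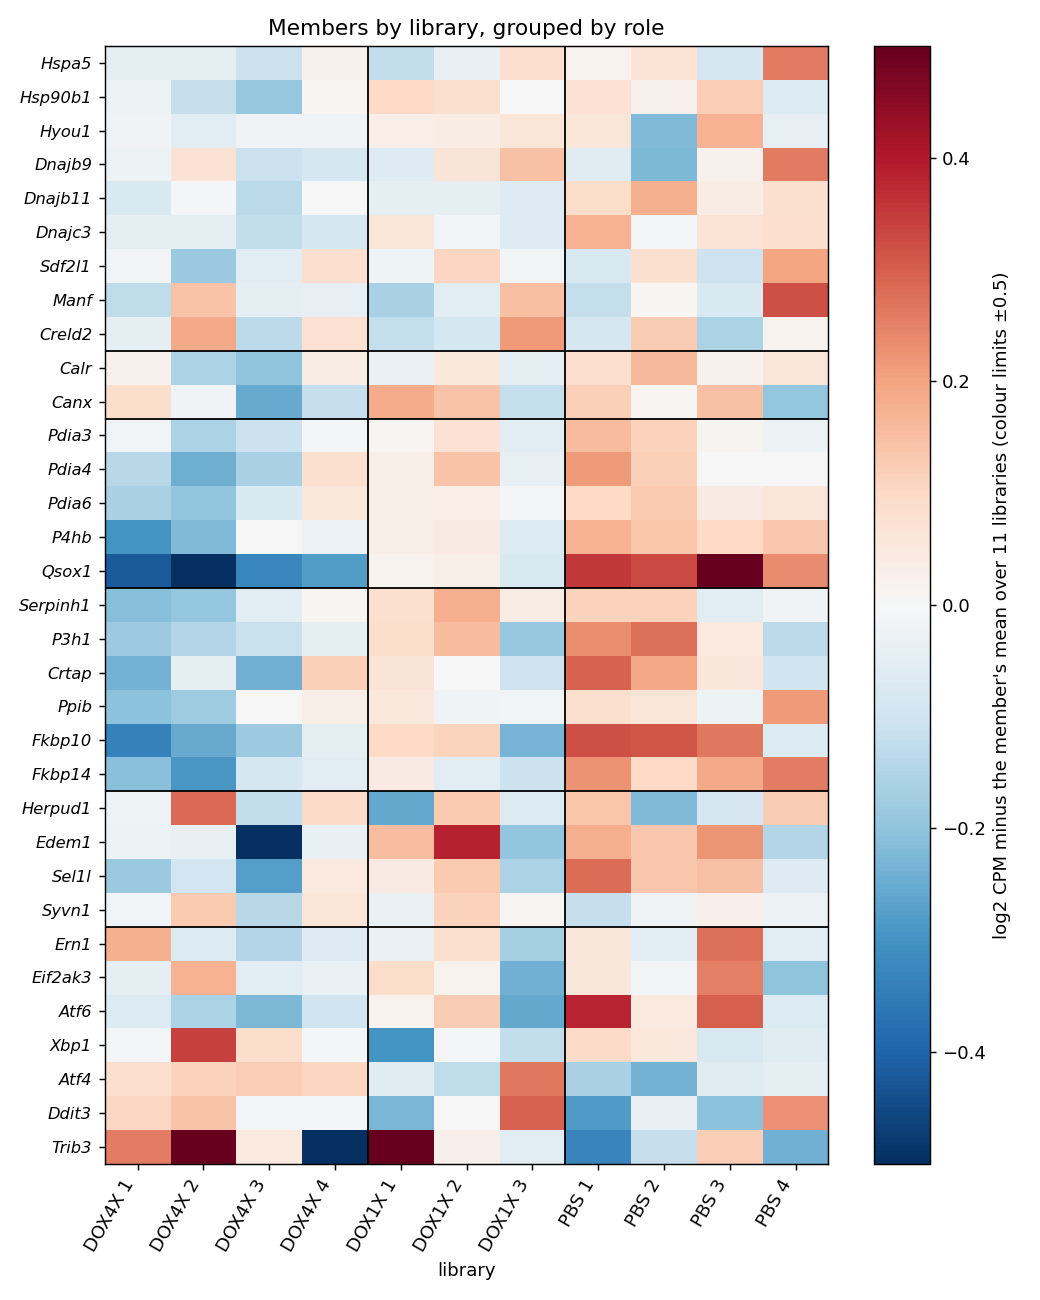
Log2 CPM of each member in each library, minus its mean over the 11 libraries, with DOX4X left, DOX1X in the middle, PBS right and roles separated by lines; red is above and blue below the mean, and colours are cut at ±0.5. DOX4X 1, 2, 3 and 4 had 6, 10, 4 and 14 of 33 members above the mean, DOX1X 1, 2 and 3 had 20, 22 and 9, and PBS 1, 2, 3 and 4 had 25, 23, 22 and 16. The same counts were not made over all genes, so a shift of a whole library is not separated here.

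The sequence classes are given as a description, with no test between them. The 10 with an element had a median DOX4X to PBS log2 fold change of -0.12 (range -0.18 to 0.07, 7 below 0), and the 19 with a window and no element had -0.15 (range -0.78 to 0.24, 15 below 0). Of the 4 members with the smallest p in DOX4X against PBS, Qsox1, Fkbp14 and P4hb were among the 19, which are most of the 29 members with a window. At an unadjusted p under 0.05, 3 of the 10, 7 of the 19 and 2 of the 4 without a window were lower (7.85% of all genes). The members with no window used here were Fkbp10, Atf6, Hyou1 and Manf.

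Other genes of the secretory pathway were taken from 5 lists of 163 genes, of which 156 were tested. Like the members, they were chosen with earlier results of these data known, and their shares are not independent evidence of direction. In DOX4X against PBS, 1 of the 156 fell past the threshold, P4ha3 (a collagen prolyl 4-hydroxylase subunit, -1.03, SE 0.15, edgeR adjusted p = 0.043), 0 rose (0.146% of all genes were called), and 33 were lower (21.2%, against 7.85% of all genes) and 4 higher (6.00% of all genes) at an unadjusted p under 0.05. Of 30 genes of collagen modification and export, 27 had a negative fold change (90%, against 47.8% of all genes; median -0.20) and 14 were lower at an unadjusted p under 0.05 (46.7%), among them P3h2 (a prolyl 3-hydroxylase, -0.58, SE 0.15). Of 40 other ER folding genes, 29 were negative (72.5%, median -0.09), with Kdelr3 (a receptor that returns ER residents, -0.38, SE 0.07, edgeR adjusted p = 0.091) and Calu (calumenin, -0.38, SE 0.10) at the smallest p.

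Of 26 other degradation genes tested, 18 were negative (69.2%, against 47.8% of all genes; median -0.06) and 1 was lower at an unadjusted p under 0.05 (3.85%, against 7.85% of all genes), with Edem3 (-0.31, SE 0.09) and Ngly1 (-0.12, SE 0.06) at the smallest p. Of 32 translocon and glycosylation genes, 22 were negative (68.8%, median -0.06) and 5 were lower at an unadjusted p under 0.05 (15.6%), with Ssr3 (a translocon-associated subunit, -0.63, SE 0.16) and Tmem258 (an oligosaccharyltransferase subunit, 0.22, SE 0.07). Targets of the integrated stress response had a median of 0.03 over 28 tested of 34 listed, 16 above and 12 below 0 (42.9%), with Vldlr (-0.86, SE 0.35) and Psat1 (serine synthesis, 0.54, SE 0.23). The tRNA synthetase genes on this list (Cars1, Sars1, Gars1, Wars1 and Nars1) were not found in the counts under these symbols and are not covered. A list of 30 secreted or surface proteins, mostly matrix but also holding Cxcl12, Lpl, Apoe, Igfbp4, Igfbp5 and Vcam1, had a median of -0.45, with 27 negative (90%) and 4 past the threshold. This list too was written with its behaviour in these data known and is not independent evidence of direction.

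**Figure D4:**
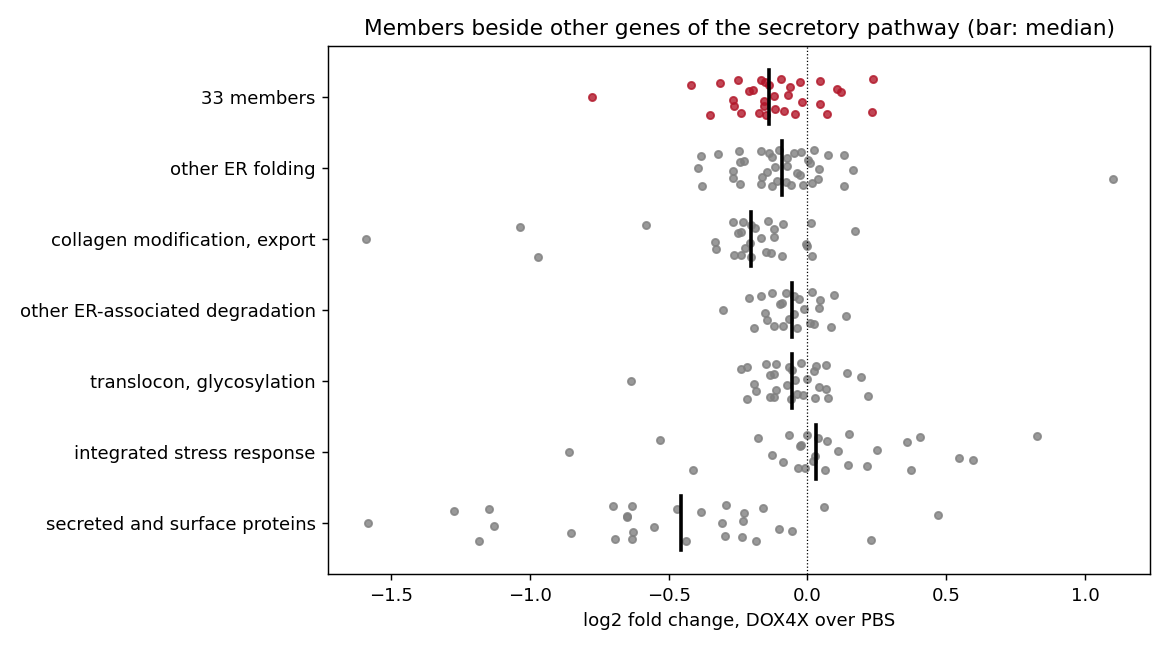
Log2 fold changes in DOX4X against PBS of the 33 members (red, top) and of 6 other lists (grey), 1 point per gene tested, with a bar at each median. The members' median of -0.14 lies between that of collagen modification and export (-0.20) and that of other ER folding genes (-0.09), and the list of secreted and surface proteins lies lowest at -0.45.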

How the data were processed

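The deposited values were whole-number read counts per gene in 1 table, with no normalization. The submitters' processing notes list STAR 2.7.9a, featureCounts 2.0.1, SAMtools 1.17, Trim Galore 0.6.6, MultiQC 1.7 and FastQC 0.11.5, and GRCm39 as build. No source used here names the annotation, the strand setting or the treatment of multi-mapping reads. Per the labels' protocols, marrow was digested for 25 min at 37 °C, sorted, and total RNA was made into SMART-Seq v4 Plus libraries.

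Genes were kept with edgeR's filterByExpr (edgeR 4.0.16, R 4.3.3), a set with 99.9% or more of every library's counts, and scaled with TMM factors. Group means were fitted over all 11 libraries with the quasi-likelihood test. Each standard error is the absolute fold change over the root of F. The procedure was tested on simulated data for DOX4X against PBS. It recovered 18 of 67 genes changed 1.5-fold (26.9%), 35 of 67 changed 2-fold (52.2%) and 52 of 66 changed 4-fold (78.8%). Of its 117 calls, 12 were false. A member that was not called may therefore still have changed. Alternatives were other scaling and filters, DESeq2 1.42.0, limma-voom (limma 3.58.1), the replicate block, flow cell, a covariate for blood cell markers (mean log2 CPM, prior count 2, centred), the compared groups alone and each library left out; fits within a flow cell were added after seeing the data. Values in every library are given for members with an unadjusted p under 0.01 in any comparison and for Hspa5, Serpinh1, Xbp1, Atf4, Ddit3 and Trib3, and other lists are named by the 2 members with the smallest p. The members and lists were chosen with earlier results of these data known. The labels call the libraries biological replicates without tying them to single animals, so p-values measure the spread between these libraries. No pair of libraries agreed within sampling noise.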

Additional observations from a re-analysis of the deposited data

Results flagged for a closer look

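In groups of 4 libraries, 1 library stood apart from the other 3 for 4 of 66 member and group pairs, where chance gives about 1 in 20. Edem1 had 65.1 CPM in DOX4X 3, against 98.1 to 98.9 CPM in the other DOX4X libraries. Hyou1 had 53.4 CPM in DOX4X 2, against 54.7 CPM in each of the others, a gap that is large only beside their closeness. Eif2ak3 had 39.6 CPM in DOX4X 2, against 33.8 to 34.4 CPM. Fkbp10 had 289 CPM in PBS 4, the library whose labels disagree, against 364 to 379 CPM in the other PBS libraries.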

How the results depend on the processing

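For DOX4X against PBS, the count of members called, 1, was 4 with DESeq2 (Qsox1, Fkbp14, Fkbp10 and P4hb, adjusted p = 3.58e-11, 9.87e-04, 0.0188 and 0.0254), 0 under a flow cell term, 0 with the blood cell marker covariate, 0 with only the groups compared, and 0 to 1 with a library left out. The 26 genes called in all were 590 with DESeq2, 56 with limma-voom, 6 with flow cell, 2 with the blood cell marker covariate, 1 with only the groups compared, and 0 to 80 with a library left out (0 without DOX4X 1, 2 or 3, and 80 without PBS 4). For DOX1X against PBS, 0 members were called, and 1 with DESeq2; the 1 gene called in all was 49 with DESeq2, 5 within flow cell 1 and 1 to 2 with a library left out. For DOX4X against DOX1X, the 1 gene called in all was 27 with DESeq2 and 1 to 2 with a library left out. Of the 26 members below 0 in DOX4X against PBS, 17 stayed below 0 in all 21 alternatives.

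With the replicate number as a block, the genes called were 10 in DOX4X against PBS (Qsox1 among them, adjusted p = 0.044), 6 in DOX1X against PBS and 2 in DOX4X against DOX1X. The numbers were not taken as pairing the mice: deviations of same-numbered libraries correlated between -0.12 and 0.35 (10 pairs), those of other pairs between -0.35 and 0.35 (30 pairs), and not every library correlated best with its own number. Trib3, at 28 to 78 counts, is limited by depth.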

Other observations

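PBS 4 was the highest of all 11 libraries for 4 of the 9 HSP70 and HSP90 system members. These were Hspa5 (2315 CPM, other libraries up to 2048), Dnajb9 (85.7 CPM, others up to 79.1), Sdf2l1 (63.6 CPM, others up to 59.6) and Manf (134 CPM, others up to 119). PBS 4 was also highest for 2 of the 6 procollagen folding genes, Ppib and Fkbp14. Over all 33 members PBS 4 did not stand out. PBS 1 was the highest library for 8 members, PBS 4 for 6, PBS 3 for 5 and PBS 2 for 4. No such count was made over all genes. Jchain, an immunoglobulin joining chain gene, had 0 CPM in DOX4X 1 and 0.133 CPM in PBS 4, against 51.5 to 134 CPM in the other 9 libraries.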
